A study of Rattus norvegicus with 9 samples.

Results

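The genes followed here are 10 listed as inhibitors that NF-κB signalling induces or uses to limit itself: Nfkbia, Nfkbib, Nfkbie, Nfkbid, Nfkbiz, Tnfaip3, Tnip1, Zc3h12a, Irak3 and Zfp36. They were chosen by symbol, and all 10 were found among the 41801 genes listed in the count tables. Cells came from the tibial osteotomy site of male Sprague-Dawley rats aged 6 to 8 weeks, and all animals also carried a full-thickness wound of the dorsal foot skin. In the TO condition the circular osteotomy was left without shock waves. In the TOE condition radial extracorporeal shock waves (rESWT) were applied to the osteotomy on days 2 and 4, and TOE libraries of day 2 were collected before the application of day 4. Libraries were named by arm, day and hours: TO 2d 0h, TO 2d 4h, TO 4d 4h, TO 4d 24h, TOE 2d 4h, TOE 2d 24h, TOE 4d 4h and TOE 4d 24h. By the paper's account the hours run from the shock wave of that day, with TO as the comparator, so 24 h falls on the next day. Each of these 8 conditions had 1 library, so 3 pairs of TO and TOE were matched for day and hour: 4d 24h and, at 4 h, 2d 4h and 4d 4h. The sources used here do not give the number of rats in a library. No TO library of day 2 at 24 h was analysed.

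NF-κB dimers wait in the cytoplasm, held by the classical IκB proteins, until the IKK complex marks those proteins for destruction. The freed dimers then switch on genes for cytokines and chemokines, and with them new copies of their own inhibitors, which is why transcripts of IκBα or A20 are commonly read as a trace of recent NF-κB activity. The listed proteins act at different levels: classical IκBs hold the dimers, nuclear IκBs act on chromatin, and A20 and its partner ABIN1 act on ubiquitin chains near the receptors. IRAK-M acts on Toll-like receptor complexes, and Regnase-1 and tristetraprolin destroy cytokine mRNAs. Not all are brakes alone: IκBζ, a nuclear IκB, is also needed for secondary-response genes.

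The libraries held between 95954800 UMIs (TOE 4d 24h) and 144146202 UMIs (TOE 2d 4h), and 110425 cells were used after filtering. The cells formed 33 clusters, of which 12 classes were named from marker genes. The largest class was B-cell-like (58.4%), followed by neutrophil-like (11.8%) and monocyte-like cells (10.1%). Cluster 32, erythroid-like with a median of 1866 UMIs, drew 95.7% of its cells from TO 2d 4h, and levels in erythroid-like cells of that library rest on it. Over all cells the 10 genes had between 41763 UMIs (Nfkbie) and 906058 UMIs (Nfkbia). No 2 libraries shared more than 110 cell barcodes.

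The κB motif, the sequence that NF-κB dimers bind, is shown first, because a self-limiting loop runs through it. It was searched on both strands as 3 G, a purine, 2 bases of any kind, 2 pyrimidines and 2 C, in the 300 bases from 250 before to 50 after each RefSeq gene start (build GRCr8). Of the 10 genes, 6 held a match (Nfkbia, Nfkbie, Nfkbiz, Tnfaip3, Tnip1 and Irak3), against 8.16% of 27457 genes with such a window. Tnfaip3 and Tnip1 each held 3 matches, against 0.164% of all genes with 3 or more, although the 3 in Tnip1 overlap each other. In the lines that follow, capitals mark the matched letters, and each run is written 5′ to 3′ on the strand of the gene. For Nfkbia and Tnfaip3 the printed matches lie on the opposite strand, where the pattern is read. That of Nfkbiz lies on the strand of the gene, and that of Tnip1 fits on both. Not all matches are printed, and none of Nfkbie or Irak3 is.
Nfkbia, chr6:78597084-78597113, minus strand, match starting 31 bases before the gene start: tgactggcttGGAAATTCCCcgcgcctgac
Nfkbiz, chr11:58251698-58251727, plus strand, 13 bases before: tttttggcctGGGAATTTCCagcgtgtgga
Tnfaip3, chr1:15544027-15544056, minus strand, 67 bases before: tcacgtgactGGAAAGTCCCtcggaaatcc
Tnfaip3, chr1:15544015-15544044, minus strand, 55 bases before: aaagtccctcGGAAATCCCCctgtggcgaa
Tnip1, chr10:39585027-39585056, minus strand, 85 bases before: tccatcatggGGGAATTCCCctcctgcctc
A match is a description of these letters and does not show binding, and the windows of Nfkbib, Nfkbid, Zc3h12a and Zfp36 held no match to these letters.

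Levels are written in CPM, the usual scale on which a gene's UMIs are divided by all UMIs of that class in that library. The tags come from the 3′ end, so levels of different genes were not compared with each other. Each gene had its own order of classes, and no single class led for all 10. The lowest, the median and the highest library are given, over libraries with at least 20 cells of the class.

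Nfkbia encodes IκBα, the inhibitor that is rebuilt fastest after NF-κB activation. It was highest in macrophage-like cells, at 692 to 3013 CPM with a median of 1985. Monocyte-like cells (417 to 2740.5, median 1710.5) and neutrophil-like cells (228 to 2736, median 1650.2) stood next. B-cell-like cells had 107 to 792 CPM with a median of 566. Erythroid-like cells were lowest, with a median of 163 CPM. Nfkbib, which encodes IκBβ, was highest in monocyte-like cells, at 37.4 to 119 CPM with a median of 103, against 31.2 in neutrophil-like cells.

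Nfkbie and Nfkbid were highest in the B-cell-like class. Nfkbie encodes IκBε, a classical IκB with a known role in B cells, and had 33.1 to 118 CPM in B-cell-like cells, with a median of 77.3, against 37.4 in monocyte-like cells. Nfkbid encodes the nuclear IκBNS, known for its part in B-cell and T-cell responses. Its median in B-cell-like cells was 153 CPM (43.6 to 246), against 42.7 in macrophage-like and 22.4 in monocyte-like cells.

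Nfkbiz encodes IκBζ, a nuclear IκB needed for secondary-response genes such as Il6. It was highest in mast-cell/basophil-like cells, with a median of 355 CPM, then in neutrophil-like cells (316) and monocyte-like cells (272), and B-cell-like cells had 56.6. Tnfaip3 encodes A20, a ubiquitin-editing enzyme that ends signalling from TNF and Toll-like receptors. Its median was 304 CPM in mast-cell/basophil-like cells and 253 in T/NK-cell-like cells, against 109 in neutrophil-like cells. Tnip1 encodes ABIN1, an adaptor of A20, and was highest in monocyte-like cells at 154 CPM.

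Zc3h12a encodes Regnase-1, a ribonuclease that cleaves cytokine mRNAs. It was highest in neutrophil-like cells, at 30.3 to 300.3 CPM with a median of 192, and in monocyte-like cells, with a median of 161. Irak3 encodes IRAK-M, and its medians were 258 CPM in monocyte-like cells and 238 in B-cell-like cells. Zfp36 encodes tristetraprolin, which marks AU-rich mRNAs for decay. Unlike the others it was highest in mesenchymal-like cells, at 146 to 342 CPM with a median of 303, and in endothelial-like cells, with a median of 238.

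**Figure D1:**
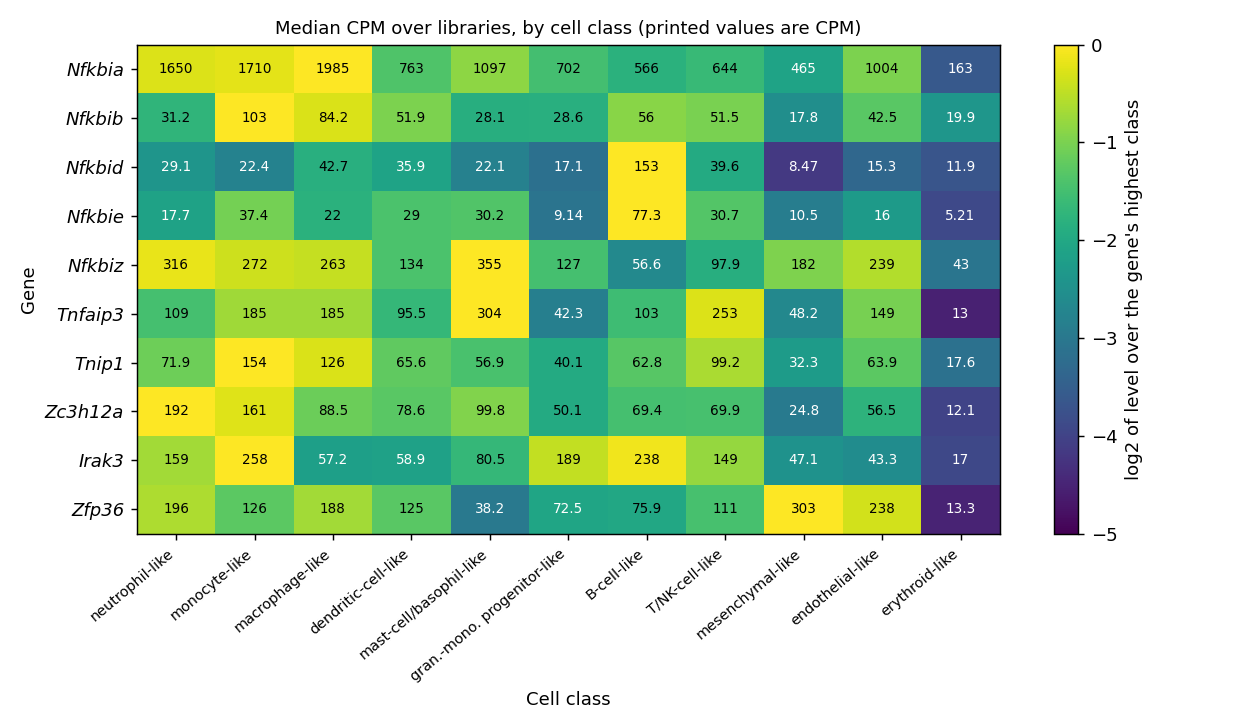
Median level of each gene (rows) in 11 cell classes (columns), printed in CPM over the libraries with at least 20 cells of the class. Colour gives the log2 of that level over the gene's own highest class: Nfkbid and Nfkbie are brightest in B-cell-like cells, Zfp36 in mesenchymal-like cells, and erythroid-like cells are darkest in 8 of the 10 rows.

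Neighbouring classes in these orders were compared over libraries with an exact sign-flip permutation test, two-sided, on the log2 ratio of CPM. The orders came from medians of the same libraries, so the pairs and their directions were set by the values tested. None of the 100 neighbour pairs passed after Benjamini-Hochberg adjustment, and 33 had an unadjusted p under 0.05. With 8 libraries the smallest p the permutation test can give is 0.00781, and over 100 pairs that came to an adjusted p of 0.0781. The ratio had the same sign in every library for 10 pairs. Among them, B-cell-like cells stood above macrophage-like cells for Nfkbid by 1.71 ± 0.55 on the log2 scale (SD, n = 8 libraries), and above monocyte-like cells for Nfkbie by 0.90 ± 0.47 (SD, n = 8 libraries). The order at the top was not separated for Nfkbia, where macrophage-like, monocyte-like and neutrophil-like libraries overlapped.

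The 3 largest immune classes were also compared gene by gene over all genes, with the library as a block, by the edgeR quasi-likelihood test with TMM normalization. Such contrasts call most genes: 81.0% of 13523 genes for neutrophil-like against monocyte-like cells, 81.6% of 15991 for neutrophil-like against B-cell-like cells and 80.7% of 16694 for monocyte-like against B-cell-like cells. The members' counts of 8, 10 and 10 called genes are therefore near the background. In monocyte-like cells Nfkbiz was higher than in B-cell-like cells by 3.03 on the log2 scale (SE 0.09, adjusted p = 1.44e-11), Nfkbia by 2.19 (SE 0.12, adjusted p = 1.91e-09) and Zc3h12a by 1.67 (SE 0.13, adjusted p = 5.69e-08). Nfkbid had a log2 fold change of -2.12 (SE 0.16, adjusted p = 5.80e-08) and Nfkbie one of -0.39 (SE 0.13, adjusted p = 0.0163). All 10 directions between these classes stayed the same when libraries were scaled by total UMIs alone, which moved the median of all genes from -0.07 to -0.59 and the calls over all genes from 6462 higher and 7004 lower to 4233 and 9783.

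On the TMM scale neutrophil-like cells had 8 of the genes higher than B-cell-like cells and 2 lower, the same 2 as in monocyte-like cells. Nfkbiz was higher by 3.76 (SE 0.11, adjusted p = 5.10e-13), Nfkbia by 2.78 (SE 0.13, adjusted p = 6.84e-11), Zc3h12a by 2.66 (SE 0.15, adjusted p = 4.34e-10) and Zfp36 by 2.54 (SE 0.15, adjusted p = 7.55e-10). Nfkbid, at -1.06 (SE 0.17), and Nfkbie, at -0.78 (SE 0.12), were lower. Scaling matters here: with total UMIs alone the median of all genes moved from -0.15 to -1.36, calls over all genes moved from 6099 higher and 6954 lower to 3122 and 11058, and Irak3 turned from 0.88 to -0.34 and Nfkbib from 0.50 to -0.71. Against monocyte-like cells, neutrophil-like cells had more Nfkbid (1.00, SE 0.11, adjusted p = 1.67e-06), Zc3h12a (0.94, SE 0.11, adjusted p = 6.13e-06), Zfp36 (0.98, SE 0.20, adjusted p = 0.000563) and Nfkbiz (0.67, SE 0.10, adjusted p = 4.21e-05). They had less Nfkbib (-1.01, SE 0.10, adjusted p = 8.30e-07), Nfkbie (-0.45, SE 0.10, adjusted p = 0.00127) and Tnip1 (-0.38, SE 0.12, adjusted p = 0.0127). Nfkbia had a log2 fold change of 0.54 (SE 0.17, adjusted p = 0.0115), which turned to -0.11 with total UMIs alone. The median of all genes in this contrast moved from -0.09 to -0.73 with that scaling, and the calls over all genes from 5176 higher and 5771 lower to 3046 and 8263. On that scale Nfkbid was at 0.36 (SE 0.13, adjusted p = 0.0184) and Zc3h12a at 0.29 (SE 0.11, adjusted p = 0.0246), Zfp36 (0.34) and Nfkbiz (0.023) kept their sign but no longer passed, and Irak3 (-0.63) and Tnfaip3 (-0.90) were called lower.

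Other genes of the pathway were counted in the same contrasts on the TMM scale alone. As 81.0% to 81.6% of all genes were called in these contrasts, the counts are given as a description. For neutrophil-like against B-cell-like cells, 14 of 16 receptors and adaptors, among them Tnfrsf1b, Tlr2 and Myd88, were higher, 14 of 16 target genes, among them Il1rn, Sod2 and Il1b, were higher, and 4 of 8 subunits and kinases were higher with 2 lower. For neutrophil-like against monocyte-like cells, 11 of 16 further inhibitors, among them Otulin and Tnip2, were lower and 3 were higher.

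Within the neutrophil-like class the level depended on the cluster. Cluster 5, led by Ngp and Lcn2, had 149.7 CPM of Nfkbia over all libraries. Of its cells 49.1% came from TOE 4d 24h, where it had 77.6 CPM, against 197 to 240 in the other paired libraries. Cluster 17, led by Ngp, Mmp8 and Retnlg, had 1262 CPM. Cluster 26, led by Stfa2l3, had 4317 CPM and the most Zc3h12a, at 519 CPM against 14.3 in cluster 5. Cluster 25 is a group of 391 cells led by Il23a and Cxcl3, of which 78.8% came from TO 2d 0h. It had 12706 CPM of Nfkbia, 1610.5 of Nfkbiz and 746 of Tnfaip3, each the highest of the 33 clusters, at 2469 median UMIs per cell. Only 4 of the 12 neutrophil markers were raised in it and its marker score was below 0 (-0.535), the lowest of the 5 neutrophil-like clusters. Zfp36 did not follow: it had 209 CPM in cluster 25 and 437.5 in cluster 26. In monocyte-like cells, cluster 22, led by Mal, Adgre4 and Treml4, had 3632 CPM of Nfkbia, 843 of Nfkbiz and 425 of Tnfaip3, above cluster 20 (2242, 290 and 212) and cluster 14 (1050, 258 and 149). These levels of clusters are descriptions.

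TOE was then compared with TO in the matched pairs, to ask how the inhibitors stood after shock waves. In neutrophil-like, monocyte-like and B-cell-like cells the widest gap lay in the 4d 24h pair, where 10, 9 and 10 of the 10 members were lower in TOE, against 43.2%, 37.99% and 39.9% of all genes. In neutrophil-like cells Nfkbia stood at 2252 CPM (2d 0h), 2736 CPM (2d 4h), 2136 CPM (4d 4h) and 1467 CPM (4d 24h) after osteotomy alone. With shock waves it stood at 1456 CPM (2d 4h), 1575 CPM (2d 24h), 1726 CPM (4d 4h) and 228 CPM (4d 24h). TOE 4d 24h stood apart from the other 7 libraries, which lay within a factor of 2 of each other. The value of TO 2d 0h rests in part on cluster 25, which held 308 of the 1213 neutrophil-like cells of that library (25.4%) and at most 1.22% in any other. In neutrophil-like cells Zc3h12a stood at 300.3 CPM (2726 UMIs) in TO and 30.3 CPM (495 UMIs) in TOE of this pair. The ratio was 0.101 (exact conditional 95% interval 0.0915 to 0.111), and that of Nfkbia was 0.155 (0.150 to 0.161). These intervals cover counting error only, and no single pair was tested.

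In monocyte-like cells Nfkbia stood at 1203 CPM (2d 0h), 2740.5 CPM (2d 4h), 2565 CPM (4d 4h) and 1153 CPM (4d 24h) in TO, and at 2063 CPM (2d 4h), 1358 CPM (2d 24h), 2725 CPM (4d 4h) and 417 CPM (4d 24h) in TOE. The last was again the lowest, and its ratio to TO 4d 24h was 0.362 (0.350 to 0.374). Zc3h12a had 184 and 35.7 CPM in the same 2 libraries, a ratio of 0.194 (0.174 to 0.217). Levels of both genes within single clusters of this pair differed less and are given further below. In B-cell-like cells the 4d 24h pair had 429 and 107 CPM of Nfkbia, a ratio of 0.249 (0.242 to 0.257), 169 and 43.6 of Nfkbid (0.257, 0.245 to 0.270), and 261 and 80.8 of Irak3 (0.309, 0.298 to 0.321). Dendritic-cell-like cells, with 274 and 172 cells, had 372 and 79.6 CPM of Nfkbia, a ratio of 0.214 (0.188 to 0.243).

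Some members were higher in TOE of this pair in some classes. In monocyte-like cells Zfp36 was at 80.8 CPM in TO and 114 in TOE, a ratio of 1.41 (1.30 to 1.53). Dendritic-cell-like cells had 51.4 and 97.8 CPM, a ratio of 1.90 (1.63 to 2.21). Nfkbiz was at 79.7 and 112 CPM in granulocyte-monocyte progenitor-like cells, a ratio of 1.41 (1.27 to 1.56), and Tnfaip3 at 21.2 and 34.0 CPM in mesenchymal-like cells, a ratio of 1.61 (1.13 to 2.28). The other ratios above 1 had intervals that held 1: Tnip1 in mesenchymal-like, Nfkbiz in dendritic-cell-like, Tnfaip3 in erythroid-like and Nfkbib in mast-cell/basophil-like cells (1.03 to 1.17). In mesenchymal-like cells Zfp36 had 342 and 303 CPM, a ratio of 0.885 (0.800 to 0.979), while their Nfkbia was at 378 and 132 CPM (0.351, 0.306 to 0.401). In neutrophil-like cells, by contrast, Zfp36 was at 113 and 40.4 CPM, a ratio of 0.358 (0.324 to 0.395).

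Counted over the members, at least 2-fold lower in TOE 4d 24h were 7 of 10 in neutrophil-like cells, where 10.6% of 12914 genes with at least 20 UMIs over the pair were so. In B-cell-like cells the count was 8 of 10, against 6.87% of 17835 genes. Monocyte-like cells had 4 of 10, against 6.99% of 13683 genes, and mesenchymal-like cells 3 of 10, against 3.7% of 10785 genes. In smaller classes the same count was 6 in mast-cell/basophil-like (6.25% of genes), 5 in dendritic-cell-like (4.96%), 4 in granulocyte-monocyte progenitor-like (5.05%), 4 in erythroid-like (5.34%), 3 in macrophage-like (9.47%) and 2 in T/NK-cell-like cells (7.73%), the last 2 with 24 and 29 cells in TOE. The members' median log2 ratio was -1.41 in neutrophil-like, -1.55 in B-cell-like, -0.80 in monocyte-like and -0.41 in mesenchymal-like cells, where the median of all genes was 0.13, 0.20, 0.17 and 0.28.

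In these 3 immune classes the 2 pairs at 4 h differed less. In the 2d 4h pair all 10 members were lower in TOE in neutrophil-like, monocyte-like and B-cell-like cells, with medians of -0.72, -0.58 and -0.79. Of all genes 35.3%, 39.1% and 42.3% were lower there, and their medians were 0.23, 0.12 and 0.11. At least 2-fold lower were 2 members in neutrophil-like cells (4.14% of all genes), Tnfaip3 (0.414, 0.377 to 0.453) and Zc3h12a (0.427, 0.395 to 0.460). None was in monocyte-like cells (3.22% of genes), and 1, Zc3h12a (0.449, 0.426 to 0.474), was in B-cell-like cells (5.36% of genes). In the 4d 4h pair 7, 8 and 7 members were lower in those classes, none by 2-fold (2.28%, 2.61% and 1.38% of genes), and medians were -0.28, -0.28 and -0.08. Of all genes 52.6%, 53.6% and 43.1% were lower, with medians of -0.02, -0.03 and 0.04, so the counts of lower members stood closer to those of all genes than in the 2d 4h pair. In mesenchymal-like cells 0 members (5.37% of genes) and 2 (5.91%) were 2-fold lower in the 2d 4h and 4d 4h pairs, with medians of -0.08 and -0.63, where those of all genes were -0.06 and 0.0031. Macrophage-like cells had medians of 0.06 and -0.03 in these pairs. In erythroid-like cells of the 2d 4h pair 9 members were 2-fold lower in TOE (16.2% of genes), where TO 2d 4h holds nearly all of cluster 32.

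The make-up of the classes differed in the 2d 4h pair as well. In neutrophil-like cells cluster 5, low in Nfkbia, held 4.74% in TO and 29.8% in TOE, and cluster 26, high in it, 40.4% and 17.4%. In monocyte-like cells cluster 14 held 14.0% and 41.4%, and in B-cell-like cells cluster 3 held 44.1% and 20.2%. Within single clusters the members' median log2 ratio was 0.09 in cluster 17, where Zc3h12a had 176 and 172 CPM, -0.14 in cluster 3 and -0.15 in cluster 7, and it was -0.90 in cluster 14 and -0.84 in cluster 4. Over the 26 named clusters with at least 20 cells in both libraries it was below 0 in 23, with a middle value of -0.39 and a range from -1.93 to 0.09. Nfkbia was lower in TOE in 17 of the 26 and Zc3h12a in 24. In the 4d 4h pair the median was below 0 in 19 of 25 clusters, from -0.63 to 0.24. Nfkbia was lower in TOE in only 7 of those 25 clusters, and Zc3h12a in 18. In neutrophil-like cells of that pair Nfkbia was higher in TOE in clusters 5, 17 and 21 and lower in cluster 26.

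**Figure D2:**
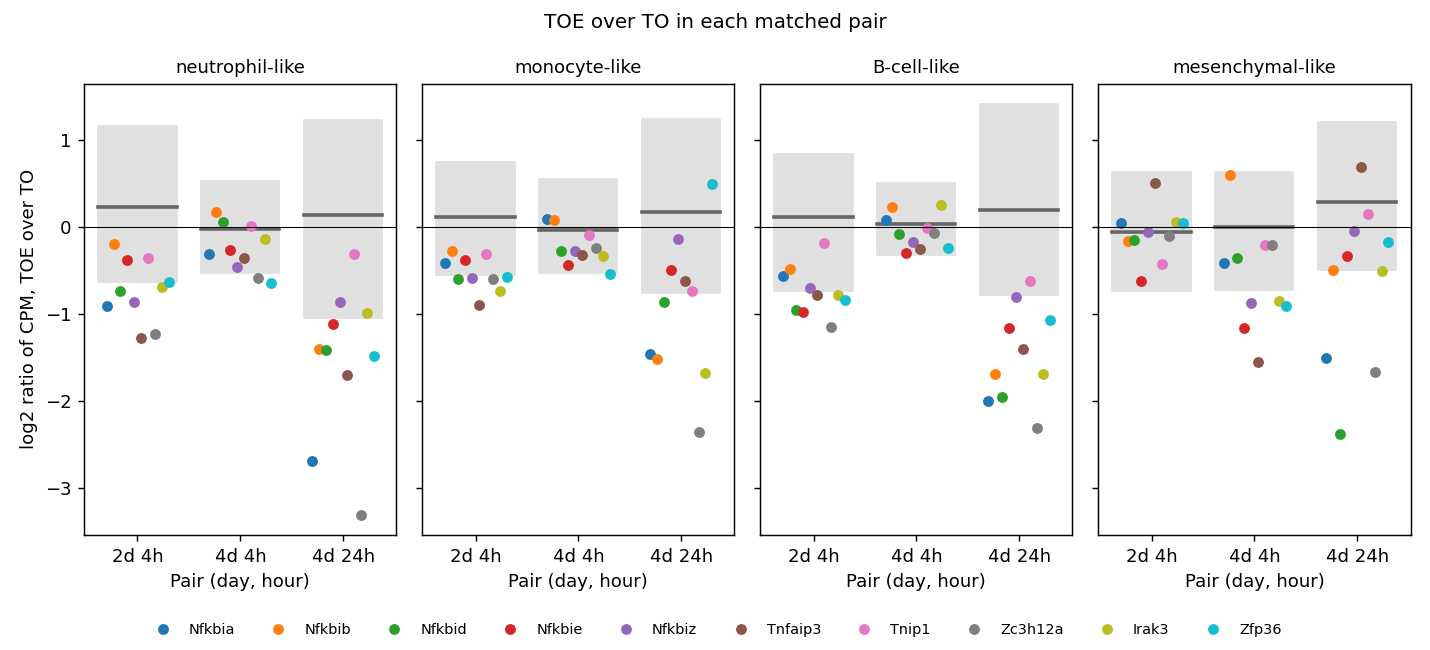
Log2 ratio of CPM, TOE over TO, for the 10 genes (points) in the 3 matched pairs of 4 cell classes. Grey boxes span the 10th to 90th percentile of all genes with at least 20 UMIs over the pair, and the grey line is their median. In the 4d 24h pair Zc3h12a is the lowest point in neutrophil-like (-3.31), monocyte-like (-2.36) and B-cell-like cells (-2.31), whereas Zfp36 lies above 0 in monocyte-like cells (0.50).

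**Figure D3:**
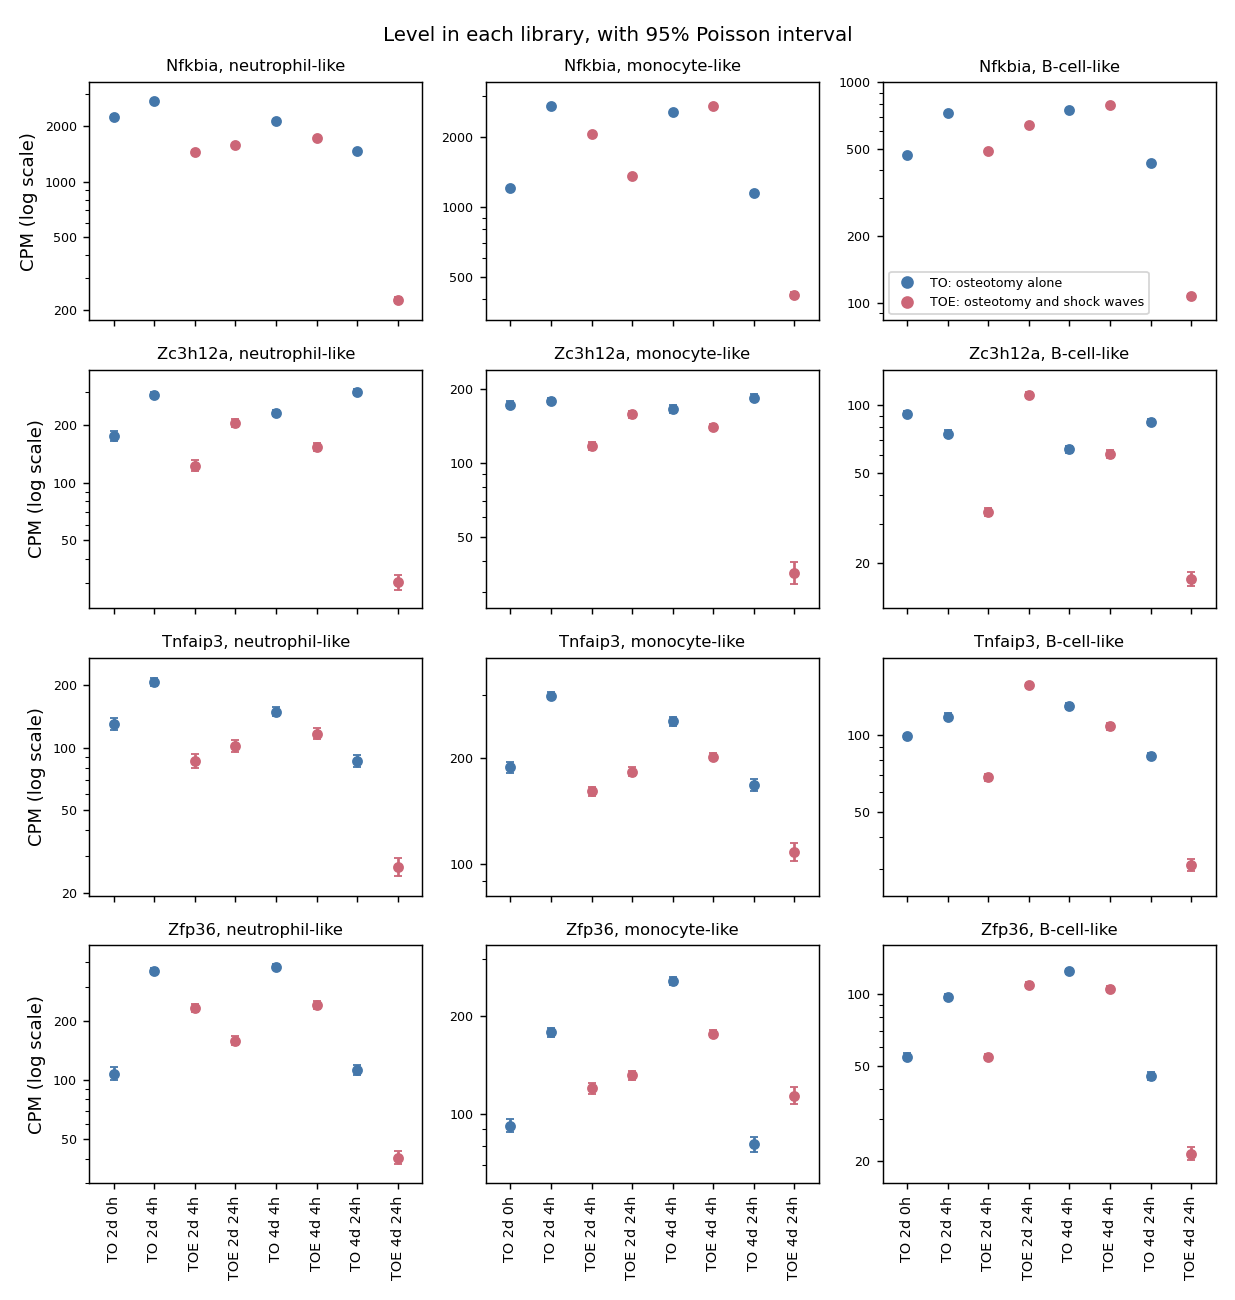
CPM on a log scale of Nfkbia, Zc3h12a, Tnfaip3 and Zfp36 in each of the 8 libraries of neutrophil-like, monocyte-like and B-cell-like cells, with exact Poisson 95% intervals. TOE 4d 24h is the lowest point in 11 of the 12 panels, and in monocyte-like cells Zfp36 is lowest in TO 4d 24h, at 80.8 CPM.

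Over the 3 pairs the edgeR quasi-likelihood test, with the pair as a block, called no gene at an adjusted p of 0.05 in any of the 4 classes tested, a background of 0%. An unadjusted p under 0.05 was reached by 1066 of 12141 genes in neutrophil-like cells (8.78%), 1379 of 14430 in monocyte-like cells (9.56%), 1325 of 17678 in B-cell-like cells (7.5%) and 355 of 11474 in mesenchymal-like cells (3.09%). Among the 10 members it was reached by 8, 5, 9 and 1. DESeq2 called 152, 158, 4 and 2 genes in the same classes. Of the members, 4 were among its calls in neutrophil-like cells (2.26% of 6727 genes), all lower in TOE (Nfkbia, Tnfaip3, Zc3h12a and Zfp36), and none in the other classes.

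All 10 members had a negative log2 fold change in each of the 4 classes in that edgeR fit, with medians of -0.79, -0.65, -0.90 and -0.48, against medians of all genes of 0.05, 0.02, -0.01 and 0.00. The values were -1.76 for Zc3h12a (SE 0.51, adjusted p = 0.505), -1.36 for Nfkbia (SE 0.45, adjusted p = 0.518) and -1.19 for Tnfaip3 (SE 0.31, adjusted p = 0.505) in neutrophil-like cells. For the B-cell-like class they were -1.30 for Zc3h12a (SE 0.37, adjusted p = 0.643), -1.12 for Nfkbid (SE 0.32, adjusted p = 0.643) and -0.93 for Nfkbie (SE 0.23, adjusted p = 0.643). TOE was below TO in all 3 pairs for 7 members in neutrophil-like cells (13.6% of genes), 7 in monocyte-like cells (14.6%), 7 in B-cell-like cells (8.14%) and 4 in mesenchymal-like cells (7.41%). Without the 4d 24h pair no member was called, nor was any without the 2d 4h pair. Without the 4d 4h pair 3 members in neutrophil-like cells (Nfkbia, Tnfaip3 and Zc3h12a) and 9 in B-cell-like cells were called lower. Of all genes 1.45% and 8.87% were called in these fits. The 4d 4h pair had the smallest gaps in those classes, and a fit without a pair has few libraries left to measure the spread. Immediate-early and dissociation genes had medians of -0.68, -0.11 and -0.66 in neutrophil-like, monocyte-like and B-cell-like cells of this comparison, with 11, 5 and 11 of 19 at an unadjusted p under 0.05.

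TOE 4d 24h was the lowest of the 8 libraries for 79 of 98 combinations of member and class with at least 200 UMIs, in the 10 classes with at least 20 cells in every library. Of all genes, 12.4% to 27.5% were lowest there, depending on the class. It was lowest in B-cell-like cells for all 10 members (20.8% of genes), in neutrophil-like cells for 9 (24.4%), in monocyte-like cells for 8 (18.6%) and in mesenchymal-like cells for 5 (15.6%). By member it was lowest for Nfkbia in 10 of 10 classes, Nfkbid in 9 of 9, Zc3h12a and Irak3 in 9 of 10, Nfkbib in 8 of 9, Tnfaip3 in 8 of 10, Nfkbiz and Tnip1 in 7 of 10, and Nfkbie and Zfp36 in 6 of 10. This library was singled out after its values had been seen, and these counts are descriptions with no test.

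The classes of TOE 4d 24h were made of other clusters than those of its partner. In monocyte-like cells cluster 14 held 95.1% of that library's cells and 9.22% of those of TO 4d 24h, where cluster 20 held 77.6%. In neutrophil-like cells clusters 21 and 5 held 45.9% and 38.3%, against 4.63% and 6.37% in TO 4d 24h, where clusters 26 and 17 held 51.8% and 37.1%. B-cell-like cells of TOE 4d 24h lay in clusters 15 (52.4%) and 2 (23.3%), and those of TO 4d 24h in cluster 0 (49.2%). Within single clusters of monocyte-like cells the members' median log2 ratio was -0.43 in cluster 14 and -0.05 in cluster 20 (with 26 TOE cells), against -0.80 in the class. Zc3h12a had 195.1 CPM in TO and 195.3 in TOE in cluster 20, and 61.4 and 29.2 in cluster 14. Nfkbia had 1105 and 1059 CPM in cluster 20, and 772 and 389 in cluster 14. In neutrophil-like cells it was -1.08 in cluster 5, -0.74 in cluster 17, -0.63 in cluster 21 and -0.60 in cluster 26, against -1.41. Medians of all genes in these 4 clusters were -0.09, 0.02, -0.22 and 0.07. At least 2-fold lower were 5, 2, 0 and 3 of 10 members, where 9.19%, 7.86%, 16.1% and 9.95% of all genes were. In the same order Zc3h12a had 38.3, 222, 27.2 and 487 CPM in TO and 11.2, 87.5, 20.3 and 170 in TOE. Nfkbia had 236, 820, 339 and 2718 CPM in TO and 77.6, 521, 173 and 1426 in TOE. In B-cell-like cells, at -1.55 in the class, clusters 4 (-1.45, with 73 and 137 cells), 2 (-1.37), 15 (-1.27, with 394 and 3745 cells) and 23 (-1.17) came near the class. The gap was smaller in clusters 0 (-0.67), 7 (-0.58), 8 (-0.49), 3 (-0.43), 6 (-0.35) and 24 (-0.02). The median was below 0 in all 24 named clusters with at least 20 cells in both libraries, from -1.45 to -0.02. Nfkbia was lower in TOE in 24 of these clusters, in 12 of them by 2-fold or more, and Zc3h12a in 22 and 16. Of all genes, 2.62% to 16.1% were at least 2-fold lower there, depending on the cluster. With 1 library per condition, an effect of shock waves in the 4d 24h pair and a difference between the 2 libraries as such cannot be told apart. Fewer cells of a type within a class and less RNA of a gene per cell cannot be told apart in summed classes either.

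**Figure D4:**
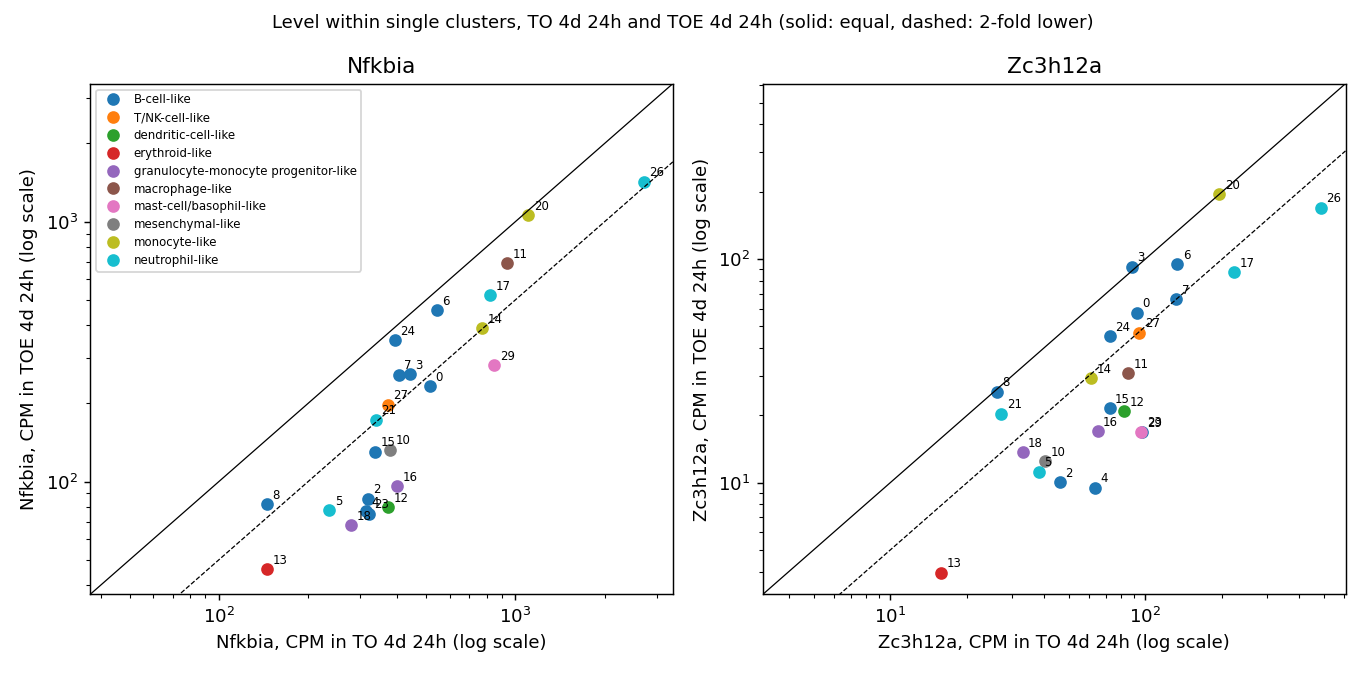
CPM of Nfkbia (left) and Zc3h12a (right) in TO 4d 24h (x axis) and TOE 4d 24h (y axis) within single clusters with at least 20 cells in both, on log scales, coloured by class and numbered by cluster. The solid line marks equal levels and the dashed line 2-fold lower: all 24 clusters lie below the solid line for Nfkbia, from cluster 20 close to it to clusters 12 and 23 far below the dashed line.

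Other gene lists also differed in the 4d 24h pair, and their part in the result was not tested. In neutrophil-like cells 16 of 19 immediate-early and dissociation genes were lower in TOE, with a median log2 ratio of -0.84, and in B-cell-like cells 18 of 19, with a median of -1.11. In monocyte-like cells 7 of 19 were lower, with a median of 0.28, above the 0.17 of all genes, while the members' median was -0.80. In mesenchymal-like cells 19 of 19 were lower, with a median of -0.82, beside -0.41 for the members. NF-κB target genes had medians of -2.42 in neutrophil-like (13 of 16 lower), -1.89 in monocyte-like (15 of 16) and -1.57 in B-cell-like cells (14 of 14). Receptors and adaptors had medians of -0.18, -0.45 and -0.17. Those of subunits and kinases were -0.97 (8 of 8 lower), -0.79 (5 of 8) and -1.25 (6 of 8). Further inhibitors had -0.57 (12 of 14), -0.85 (14 of 16) and -0.50 (12 of 15). The 7 glucocorticoid-responsive genes had medians of -1.74, -0.46 and -0.94, and clock genes had medians of -1.12 (4 of 7 measured lower), 0.0025 (4 of 8) and -0.53 (7 of 8). TOE 4d 24h had a median of 2.68% mitochondrial UMIs, inside the range of the other libraries (2.06% to 4.20%), and 4846 UMIs per cell.

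In the 2d 4h pair the part of these lists was not tested either. NF-κB target genes had medians of -0.71 in neutrophil-like (14 of 16 lower), -0.34 in monocyte-like (12 of 16) and -0.03 in B-cell-like cells (9 of 16), and receptors and adaptors had medians of 0.11, 0.10 and 0.08. Immediate-early and dissociation genes had medians of -0.69 in neutrophil-like (17 of 19 lower), -0.06 in monocyte-like (10 of 19) and -0.50 in B-cell-like cells (16 of 19), beside members' medians of -0.72, -0.58 and -0.79. Glucocorticoid-responsive genes had medians of -0.78, -0.29 and -0.75, and clock genes -0.11 (4 of 7 lower), -0.41 (7 of 8) and -0.48 (8 of 8). In the 4d 4h pair target genes did not share the members' sign: their medians were 0.00067 (8 of 16 lower), 0.32 (4 of 16) and 0.56 (2 of 16), beside -0.28, -0.28 and -0.08 for the members. Receptors and adaptors had medians of -0.16, -0.21 and 0.06 in that pair. Clock genes had -0.60 (4 of 7 lower), -0.30 (8 of 8) and 0.10 (3 of 9), and glucocorticoid-responsive genes -0.16, -0.03 and -0.04. Immediate-early and dissociation genes had medians of -0.31 (15 of 19 lower), -0.19 (17 of 19) and 0.10 (4 of 19), and in mesenchymal-like cells one of -0.41 (18 of 19), beside -0.63 for the members.

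Libraries collected at 4 h were compared with those at 0 h and 24 h, to ask how the inhibitors stood by hour of collection. In this comparison 4 libraries stood against 4, over both arms and days, and since TO received no shock waves it does not measure time after treatment. In monocyte-like cells 2 members passed the edgeR test, Nfkbia and Zfp36, where 12.5% of 14473 genes were called and 6.66% were called higher. A count of 2 among 10 members stands near this background, so the 2 genes are described singly and not as a result about the members. Nfkbia had 2740.5, 2063, 2565 and 2725 CPM at 4 h (TO 2d 4h, TOE 2d 4h, TO 4d 4h and TOE 4d 4h) and 1203, 1358, 1153 and 417 CPM in the others (TO 2d 0h, TOE 2d 24h, TO 4d 24h and TOE 4d 24h). The 2 sets did not overlap, and how often this holds over all genes was not counted. The log2 fold change was 1.28 (SE 0.34, adjusted p = 0.0401). Zfp36 had 178, 120.1, 257 and 177 CPM at 4 h and 92.2, 132, 80.8 and 114 in the others, with TOE 2d 4h below TOE 2d 24h. Its log2 fold change was 0.83 (SE 0.24, adjusted p = 0.0487).

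Both calls lay close to the threshold. Nfkbia still passed with day and arm as covariates (1.36, adjusted p = 0.0437) and with total UMIs alone (1.29, adjusted p = 0.0269), whereas Zfp36 passed in neither (0.80, adjusted p = 0.0849, and 0.80, adjusted p = 0.0513). Cluster 14, the monocyte-like cluster with the least Nfkbia, held 14.0% to 41.4% of the class at 4 h, and in the others 9.22% to 15.4% except for 95.1% in TOE 4d 24h. Without TOE 4d 24h, the lowest library for Nfkbia, they held at 0.98 (SE 0.14, adjusted p = 0.00241) and 0.80 (SE 0.25, adjusted p = 0.0442), where 23.8% of genes were called. Leaving out any of the other 7 libraries lost the call of Nfkbia (adjusted p between 0.0554 and 0.0995), and 6 of the 7, all but TOE 2d 4h, lost that of Zfp36 (0.0561 to 0.123), with both higher at 4 h throughout. In neutrophil-like cells Zfp36 had 362, 233, 379 and 242 CPM at 4 h and 108, 159, 113 and 40.4 in the others. It reached 1.40 (SE 0.38, adjusted p = 0.0562) there and 1.12 (SE 0.25, adjusted p = 0.0165) without TOE 4d 24h, where 17.2% of genes were called. No member passed in neutrophil-like cells (7.24% of genes called, 1 member at an unadjusted p under 0.05, 1 by DESeq2 with 13.2% of genes), B-cell-like cells (20.6%, 0 and 0) or mesenchymal-like cells (5.07%, 1 and 0).

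In B-cell-like cells the calls depended on TOE 4d 24h. Without that library edgeR called 36.2% of 17904 genes, so that 3 called members of 10 are no more than the background. These 3 were lower at 4 h: Tnip1 at -0.45 (SE 0.10, adjusted p = 0.00725), Zc3h12a at -0.81 (SE 0.24, adjusted p = 0.024) and Nfkbid at -0.68 (SE 0.23, adjusted p = 0.0429). Zc3h12a had 74.9, 33.7, 63.8 and 60.7 CPM at 4 h and 91.9, 111, 84.4 and 17.0 in the others. With TOE 4d 24h the 2 sets overlapped, and without it they did not, which was not counted over all genes. The class was made of different clusters in the 2 sets. Cluster 0 held 43.7%, 49.2% and 57.3% of the B-cell-like cells of TO 2d 0h, TO 4d 24h and TOE 2d 24h, 2.97% in TOE 4d 24h and 0.828% to 1.21% at 4 h, whereas cluster 3 held 20.2% to 44.1% at 4 h and 0.445% to 2.49% in the others. The part of this in the 3 calls was not tested. In neutrophil-like cells Nfkbie was called lower at 4 h without that library, at -0.62 (SE 0.18, adjusted p = 0.0461), and with Zfp36 it made 2 of 10 members against 17.2% of all genes.

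Among other genes of the pathway, Irak1, a kinase of Toll-like and interleukin-1 receptor signalling, was called higher at 4 h in neutrophil-like (0.89, SE 0.14, adjusted p = 0.00881), monocyte-like (0.61, SE 0.09, adjusted p = 0.00633) and B-cell-like cells (0.46, SE 0.12, adjusted p = 0.0206). Socs1, an inhibitor of cytokine signalling, was higher in monocyte-like cells by 2.18 (SE 0.34, adjusted p = 0.0073) and in neutrophil-like cells by 1.52 (SE 0.36, adjusted p = 0.0353). Il6, which encodes a cytokine, was higher by 2.17 (SE 0.43) and 2.36 (SE 0.34) in the same classes, whereas Ccl4, a chemokine gene, was called lower in neutrophil-like cells, at -3.31 (SE 0.81, adjusted p = 0.0385). Il6 and Ccl4 were the 2 called of the 16 targets there, with a list median of -0.23, and Il6 the 1 called in monocyte-like cells, with a median of 0.38. Ikbkg, the regulatory subunit of the IKK complex, fell by 0.51 in monocyte-like and by 0.52 in B-cell-like cells. In monocyte-like cells 3 of 16 further inhibitors were called higher and 1 lower, and 2 of 16 receptors and adaptors higher, where 6.66% of all genes were called higher and 12.5% in either direction. Of the accompanying lists, Hspa1b and Hspa1a, heat shock genes, were higher at 4 h in neutrophil-like (3.04 and 1.87) and B-cell-like cells (2.20 and 1.54). Among clock genes Dbp was higher (0.60) and Per3 lower (-1.24) in monocyte-like cells, and no glucocorticoid-responsive gene was called in these 3 classes, where 0, 1 and 1 of 7 had an unadjusted p under 0.05. In mesenchymal-like cells 9 of 19 immediate-early and dissociation genes were called lower, among them Klf2 (-2.50) and Junb (-1.57), where 5.07% of genes were called, and the calls over all genes fell from 626 to 5 without TO 4d 4h, 34 without TO 2d 4h and 38 without TOE 2d 4h.

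The genes whose levels ran most alike with each member were sought over 87 combinations of class and library, among 13092 genes with at least 2000 UMIs. These combinations share libraries and classes, so the correlations are descriptions. Tnip1 ran with Irak2 (Pearson r = 0.92) and Rap1b (0.90), Nfkbiz with Dgat1 (0.89) and Nfil3 (0.87), and Zc3h12a with Map3k8 (0.86), Adgre5 (0.86) and Neurl3 (0.84). Nfkbie ran with Rel (0.85) and Relb (0.84), both NF-κB subunits, Nfkbid with Tbc1d20 (0.83) and also Rel (0.82), and Tnfaip3 with Nfkb1 (0.83). Nfkbia ran with Tes (0.83) and Csrnp1 (0.83), Nfkbib with Wasf2 (0.86) and Tbk1 (0.85), Zfp36 with Arid5a (0.86), and Irak3 with Limd2 (0.77). Among the members Nfkbib and Tnip1 (0.84) and Nfkbia and Zc3h12a (0.81) were closest, and Nfkbid and Nfkbiz (-0.08) were farthest apart.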

How the data were processed

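Cells of the tibial osteotomy site were profiled by droplet 3′ RNA sequencing, in 9 conditions with 1 library each, of which 8 libraries were analysed; TO of day 2 at 24 h is not analysed here. The deposited values were UMI counts per gene and cell barcode, not normalized, which the authors made with Cell Ranger 9.0.0 according to the submitters' processing notes, which also name Seurat, R 4.0.3 and the builds GRCh38 and mRatBN7.2 without giving the role of either build. Cell barcodes entered with 200 or more detected genes and no more than 20% of UMIs from mitochondrial genes, and those with a Scrublet score of 0.25 or more were removed as doublets (2.42% to 4.24% per library). Cells were clustered (scanpy 1.11.5; 2000 variable genes, 30 components, 15 neighbours, Leiden resolution 1) without the genes of the NF-κB lists, and clusters were named from marker genes as "X-like". UMIs were summed per class and library, and genes that passed filterByExpr were tested with edgeR 4.0.16 (TMM, quasi-likelihood test, Benjamini-Hochberg adjustment over all genes tested, threshold 0.05), with DESeq2 1.42.0 as an alternative in R 4.3.3. The test was also run on simulated data, and the outcome is not given here. TOE was compared with TO with the pair as a block, so that pairs of different day and hour stood in as replicates. By the schedule TOE of day 2 had 1 shock wave application and TOE of day 4 had 2. The p-values measure the spread between these libraries. Neighbouring classes were compared with an exact sign-flip test (scipy 1.17.1; 0.5 UMI added to each sum). Single pairs have exact conditional 95% intervals and levels exact Poisson intervals, both of counting error only. All 10 members were described in every class; other genes of the pathway were named, among those called, as up to 5 by smallest p in a fit. The members, gene lists and tests were chosen with earlier results of these data known, and lists of clock, immediate-early and glucocorticoid-responsive genes are given beside the members. Alternatives were another scaling, test and low-count filter, leaving out libraries or pairs, no block, day and arm as covariates, and other cell filters and clusterings. Scaling by total UMIs alone was added after the data had been seen.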

Additional observations from a re-analysis of the deposited data

Results flagged for a closer look

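Among the 4 libraries at 4 h and the 4 at 0 h or 24 h, each gene was checked for a library far from the other 3 (Dixon's ratio of the gap to the range of log2 CPM, at the 95% critical value). Of 80 such groups in neutrophil-like, monocyte-like, B-cell-like and mesenchymal-like cells 9 passed. The rule was not run on all genes, and the libraries of a group differ in arm and day and recur across groups. No background rate can therefore be set beside this count. In 6 of the 9 the library apart was TOE 4d 24h, each time as the lowest. Of all genes, 15.6% to 24.4% were lowest of the 8 libraries in TOE 4d 24h, depending on the class.

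In monocyte-like cells Nfkbia was at 417 CPM in TOE 4d 24h against 1153 to 1358 in the others of its group (ratio 0.861), and Zc3h12a at 35.7 against 157 to 184 (0.904). In B-cell-like cells Nfkbib was at 18.3 CPM against 51.8 to 61.1 (0.863), Zc3h12a at 17.0 against 84.4 to 111 (0.853) and Irak3 at 80.8 against 235 to 261 (0.909). In mesenchymal-like cells Nfkbid was at 2.00 CPM, from 4 UMIs, against 11.5 to 15.6 (0.853).

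The other 3 lay among the 4 h libraries. Nfkbid in B-cell-like cells was lowest in TOE 2d 4h, at 79.3 CPM against 144 to 154 (0.896). In mesenchymal-like cells Nfkbia was highest in TO 4d 4h, at 645 CPM against 457 to 484 (0.836), and Zfp36 was lowest in TOE 4d 4h, at 146 CPM against 274 to 311 (0.836). The causes were not tested.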

How the results depend on the processing

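Counts of called members, or of called pairs of neighbouring classes, stayed within 1.5 times in 105 of 114 alternatives other than leaving out libraries or pairs. Of those that left one out, 56 of 68 did. A count of 0 in both settings enters as unchanged, and the class contrasts called most genes, so these totals say little about stability. For TOE against TO the counts of 0 became 4 with DESeq2 (2.26% of all genes called) and 5 without a low-count filter (1.67%) in neutrophil-like cells and 7 without that filter in B-cell-like cells (1.22%), and ranged over 0 to 3 and 0 to 9 when a pair was left out (at most 1.45% and 8.87%). For 4 h against 0 h and 24 h, neutrophil-like cells had 1 with DESeq2 (13.2%), without a filter (3.38%), with total UMIs alone (8.9%) and at Leiden resolution 2 (7.55%) (0 to 2 when a library was left out). Monocyte-like cells had 1 with total UMIs alone (12.3%) and 1 with day and arm as covariates (11.9%), Nfkbia each time (0 to 2), and B-cell-like cells 0 to 3. The labels give no shared replicate numbers; without the replicate block of day and hour 0 members were called in each class, and members at an unadjusted p under 0.05 numbered 4, 2, 3 and 0 in neutrophil-like, monocyte-like, B-cell-like and mesenchymal-like cells.

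Log2 fold changes of single members kept their direction in 1160 of 1174 alternatives. In the comparison of 4 h with 0 h and 24 h only Nfkbia and Zfp36, the members called there, were checked in this way. For TOE against TO in mesenchymal-like cells, Nfkbib turned to 0.036 with total UMIs alone, 0.022 with no replicate block and 0.0097 with the stricter cell filter, and ranged from -0.45 to 0.33 when a pair was left out (positive without 4d 24h), as Tnfaip3 did from -0.66 to 0.49 (positive without 4d 4h). For neutrophil-like against monocyte-like cells, Irak3, near 0, turned to -0.14 without a filter, -0.15 with doublets kept, -0.63 with total UMIs alone and ranged from -0.044 to 0.085 when a library was left out (negative without TOE 2d 24h, TOE 4d 4h or TOE 4d 24h), and Nfkbia to -0.11 with total UMIs alone. For neutrophil-like against B-cell-like cells, Nfkbib turned to -0.71 and Irak3 to -0.34 with total UMIs alone.

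Over all genes, calls moved beyond 1.5 times in several settings. For 4 h against 0 h and 24 h they ranged from 254 to 2133 in neutrophil-like, 764 to 3530 in monocyte-like, 1742 to 6477 in B-cell-like and 5 to 1389 in mesenchymal-like cells, each highest without TOE 4d 24h except in mesenchymal-like cells (DESeq2), whose 626 calls fell to 13 with day and arm as covariates. For TOE against TO, where edgeR called 0, these settings gave 3 to 390, 66 to 158, 4 to 1594 and 2 to 8. The causes were not tested. Mesenchymal-like cells were few, at 60 to 498 per library, which limits precision there.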
